A study of Danio rerio with 6 samples.

Results

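In proximal tubules dissected from zebrafish larvae after acute kidney injury, transcripts of 218 genes were at least 2 times as abundant in gent-AKI+UPHD25 tubules as in gent-AKI+DMSO tubules in each of 3 replicate pairs. The genes were chosen by that contrast itself. Levels in CPM (reads on a gene relative to the reads counted in its library, scaled with the TMM factors of edgeR) were computed over the 26081 genes with a count among the 32520 in the table. A gene was kept if its mean was at least 1 CPM over the 3 DMSO libraries and if its CPM in the UPHD25 library was at least 2 times that in the DMSO library of the same replicate number in pairs 1, 2 and 3. Of the 16647 genes at the DMSO minimum, 218 met the rule (1.31%). The mirror rule, a mean of at least 1 CPM over the UPHD25 libraries and at least 2 times more CPM in DMSO in every pair, gave 24 genes. Because all 6 libraries entered the choice, levels and ratios of these genes are given as a description, without a test.

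Tg(PT:egfp) larvae were used, whose green fluorescence marks the proximal tubule of the pronephros, the larval kidney. Larvae of both groups were injected with gentamicin, an aminoglycoside toxic to the tubule, at 3 dpf, which produces acute kidney injury (gent-AKI). At 2 dpi, the treated larvae received 1 μM UPHD25, a prodrug of the histone deacetylase inhibitor 4-(phenylthio)butanoic acid (PTBA), in 1% DMSO, and the control larvae received 1% DMSO alone. After 24 h, at 6 dpf, pools of 100 larvae were digested with collagenase and the fluorescent tubules were dissected by hand, with 3 pools per treatment, named here UPHD25 replicates 1 to 3 and DMSO replicates 1 to 3. There was no uninjured group among these libraries, and hand dissection can carry neighbouring tissue into a pool.

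Many of the 218 genes belong to the eye or to neurons. Crystallins are the soluble proteins that fill the fibre cells of the lens and give it its refractive index, and beaded filament proteins and membrane proteins such as Lim2 belong to the same cells. Neurons are known for proteins that make, load, release and sense the transmitters GABA and glutamate, for adhesion proteins that join both sides of a synapse, and for genes that are transcribed within minutes of electrical activity. Histone deacetylases remove acetyl groups from histones, and their inhibitors raise histone acetylation.

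A gene name table matched 215 of the 218 genes, and symbols are given as it spells them, often in capitals. Roles were assigned by hand after the values were seen, mostly from knowledge of mammalian proteins. They cover 179 genes in 19 groups, and 39 genes were left without one.

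The libraries differed in depth and 1 of them stood apart. Counts on genes summed to 23328700, 10781071 and 12326927 in UPHD25 replicates 1, 2 and 3, and to 30750026, 11851159 and 12031990 in DMSO replicates 1, 2 and 3. The 218 genes together took 0.710%, 0.516% and 2.51% of the counts in the UPHD25 libraries, against 0.172%, 0.141% and 0.155% in the DMSO libraries. UPHD25 replicate 3 was therefore the library in which these genes were most abundant, and it was the highest UPHD25 library for 187 of the 218 genes. Its TMM factor was 1.22, against values between 0.901 and 0.997 in the other 5 libraries. Without the replicate 3 pair, 249 genes met the rule and 206 of the 218 were among them. All 218 had already passed pairs 1 and 2, so only the DMSO minimum over replicates 1 and 2 could remove a member. This overlap therefore does not tell how far the set depends on replicate 3. Tubule markers were present in every library, but not at even levels. The phosphate carrier SLC20A1 (ENSDARG00000010641) had 862, 826 and 891 CPM in the UPHD25 libraries, against 756, 745 and 995 CPM in the DMSO libraries, and the endocytic receptor LRP2 had 109, 90.9 and 84.7 CPM, against 119, 71.1 and 87.6 CPM. The glucose carrier SLC5A2, in contrast, had 18.1, 1.68 and 18.4 CPM, against 19.3, 4.49 and 9.84 CPM, and the scaffold gene pdzk1 had 50.8, 9.25 and 67.9 CPM, against 49.01, 6.55 and 26.5 CPM. Both were lowest in replicate 2 of each treatment, as were SLC5A1, SLC26A1 and amn.

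The size of the difference varied between the pairs. The median ratio of UPHD25 to DMSO over the 218 genes was 2.60 in pair 1, 2.95 in pair 2 and 4.2 in pair 3, where the medians over all 16647 genes were 0.988, 0.967 and 0.990. Pair 1 decided the choice most often, with the smallest of the 3 ratios for 111 genes, against 88 for pair 2 and 19 for pair 3. In pair 1 only 508 of the 16647 genes were at least doubled (3.05%), whereas 1343 were in pair 2 (8.07%) and 1868 in pair 3 (11.2%). The 3 UPHD25 libraries lay above all 3 DMSO libraries for 191 of the 218 genes, against 8.69% of the 16647 genes, and the groups overlapped for 27. In the plot of ratios by role, most lens genes of pair 3 lie to the right of nearly all other points, with gnb3b, CAPN3, syt5b, TKT and si:ch211-255g12.6 among them.

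**Figure D1:**
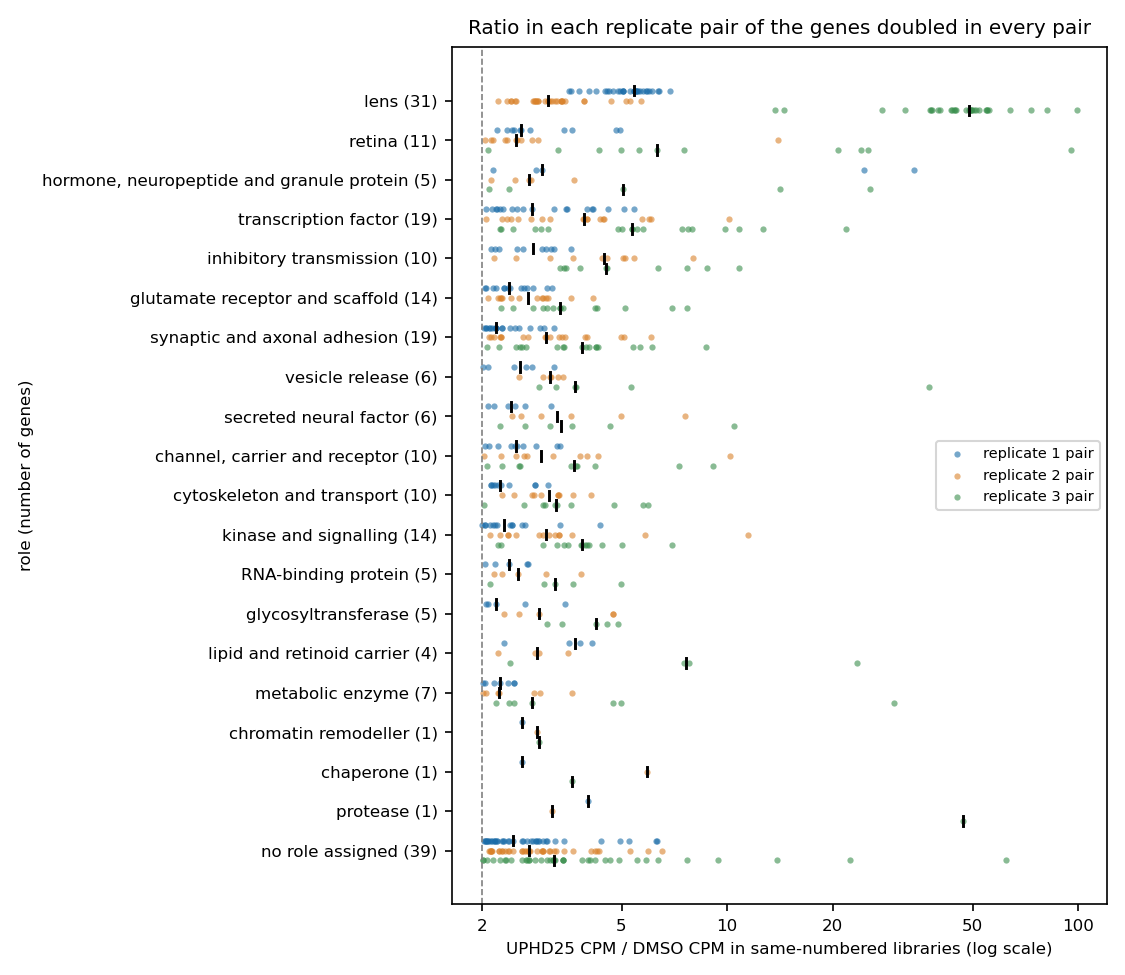
Each point is 1 gene in 1 replicate pair, with its UPHD25 CPM divided by its DMSO CPM on a log axis, genes grouped by role and the black bars at the median of each pair. The dashed line is the ratio of 2 that every gene had to reach. The lens genes have medians of 5.42, 3.09 and 48.9 in pairs 1, 2 and 3, and the other 187 genes have medians of 2.46, 2.94 and 3.71.

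Lens genes were the largest single group and included the transcripts with the highest mean UPHD25 level. There were 31, of which 26 were crystallins, and their summed level was 5027, 1630 and 14767 CPM in the UPHD25 libraries, against 927, 513 and 301 CPM in the DMSO libraries. All UPHD25 sums were above all DMSO sums, but the UPHD25 libraries themselves differed widely. Lens transcripts took 0.482%, 0.162% and 1.81% of the counts in UPHD25 replicates 1, 2 and 3, against 0.0884%, 0.0462% and 0.0300% in DMSO replicates 1, 2 and 3. In these bulk libraries, more cells of a type and more RNA per cell cannot be told apart.

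By mean UPHD25 level, which replicate 3 carried, the beta crystallins were the most abundant members. crybb1l2, with the highest mean UPHD25 level of the 218 genes, had 610.1, 196 and 1650.1 CPM in UPHD25 replicates 1, 2 and 3, against 108, 63.5 and 33.3 CPM in DMSO replicates 1, 2 and 3. CRYBB1 had 478, 172 and 1708 CPM in the UPHD25 libraries, against 94.8, 54.96 and 30.6 CPM in the DMSO libraries. The next was crybb1l1, with 460.2, 174 and 1682 CPM in the UPHD25 libraries, against 84.8, 56.5 and 30.7 CPM in the DMSO libraries. For all 3 genes UPHD25 replicate 3 was highest and DMSO replicate 3 lowest, and the ratio was largest in pair 3 and smallest in pair 2. The means were 819 ± 749 CPM in UPHD25 and 68.2 ± 37.5 CPM in DMSO for crybb1l2, 786 ± 813 CPM in UPHD25 and 60.1 ± 32.4 CPM in DMSO for CRYBB1 and 772 ± 801 CPM in UPHD25 and 57.3 ± 27.1 CPM in DMSO for crybb1l1 (SD, n = 3 each). In the UPHD25 group the SD was about as large as the mean. In UPHD25 replicate 2 the neuronal genes NPAS4, egr4 and scg2b were above all 3 of them.

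The beta-A crystallins, partners of the beta-B proteins in the lens, had the same order of libraries at lower levels. cryba1l1 had 417, 119 and 1100.0 CPM in the UPHD25 libraries, against 71.1, 37.6 and 22.3 CPM in the DMSO libraries, and its ratios were 5.87, 3.17 and 49.4 in pairs 1, 2 and 3. cryba1b had 366, 109.5 and 1160.2 CPM, against 67.1, 39.2 and 24.3 CPM. CRYBA4 had 352, 98.5 and 964 CPM, against 57.5, 30.1 and 18.8 CPM. In each of these, even the lowest UPHD25 library was above the highest DMSO library. A pair of genes share the symbol CRYBA2, and they had 247, 73.8 and 714 CPM and 172, 53.3 and 567 CPM in the UPHD25 libraries, against 44.2, 25.9 and 16.3 CPM and 32.5, 21.4 and 10.8 CPM in the DMSO libraries. Both genes of this symbol followed the same order of libraries. CRYGN (ENSDARG00000030411), of a small family between the beta and gamma crystallins, had 376, 93.8 and 870.1 CPM, against 63.5, 29.02 and 17.3 CPM, and a second gene of that symbol had 9.16, 1.4 and 19.4 CPM, against 1.43, 0.562 and 1.42 CPM, with overlapping groups.

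The gamma-M crystallins, a fish expansion of the gamma family, gave 13 members named crygm2d. The gene with the largest smallest ratio of all 218, crygm2d6, had 14.1, 7.94 and 31.8 CPM in the UPHD25 libraries, against 2.56, 1.5 and 0.834 CPM in the DMSO libraries, with ratios of 5.50, 5.30 and 38.1. crygm2d14, of the same run of genes, was more abundant, with 133, 53.05 and 355 CPM against 24.5, 10.3 and 7.92 CPM and ratios of 5.42, 5.15 and 44.8. In both, no DMSO library reached the lowest UPHD25 library. The most abundant gamma-M gene, crygm2d13, had 286, 105 and 933 CPM, against 57.7, 26.96 and 17.1 CPM. crygm2d8 had 204, 57.2 and 541 CPM, against 40.2, 18.9 and 12.2 CPM. crygmxl2, of the related gamma-MX genes, had 215, 69.6 and 575 CPM, against 35.9, 14.9 and 11.7 CPM. The same order of UPHD25 libraries held for the other gamma-M members, among them crygm2d1, crygm2d16, crygm2d17 and crygm2d2, whose smallest ratios lay between 3.36 and 3.90. The largest ratio in any pair, 99.4, was that of crygm2d10 in pair 3, where 375 counts in UPHD25 stood against 3 counts in DMSO (exact binomial 95% interval 33.8 to 484, for counting error only). In pairs 1 and 2 the ratios of crygm2d10 were 4.60 and 3.38. The authors' handling of reads that fit several genes is not given in the sources used here, so the division of reads between near-identical gamma-M copies is uncertain and the family sum is the safer quantity.

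The crystallin family was therefore also taken as a whole. The name table holds 57 crystallin genes, a family picked after the values were seen, of which 51 had a count and 27 reached the DMSO minimum. Of these 27, which the plot of crystallins shows, all but CRYBB3 were among the 218, where 1.31% of all genes met the rule. CRYBB3 had 29, 16 and 16 counts in the UPHD25 libraries, against 23, 23 and 22 counts in the DMSO libraries, and its groups overlapped. The family as a whole summed to 4904, 1586 and 14387 CPM in the UPHD25 libraries, against 905, 503 and 292 CPM in the DMSO libraries.

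**Figure D2:**
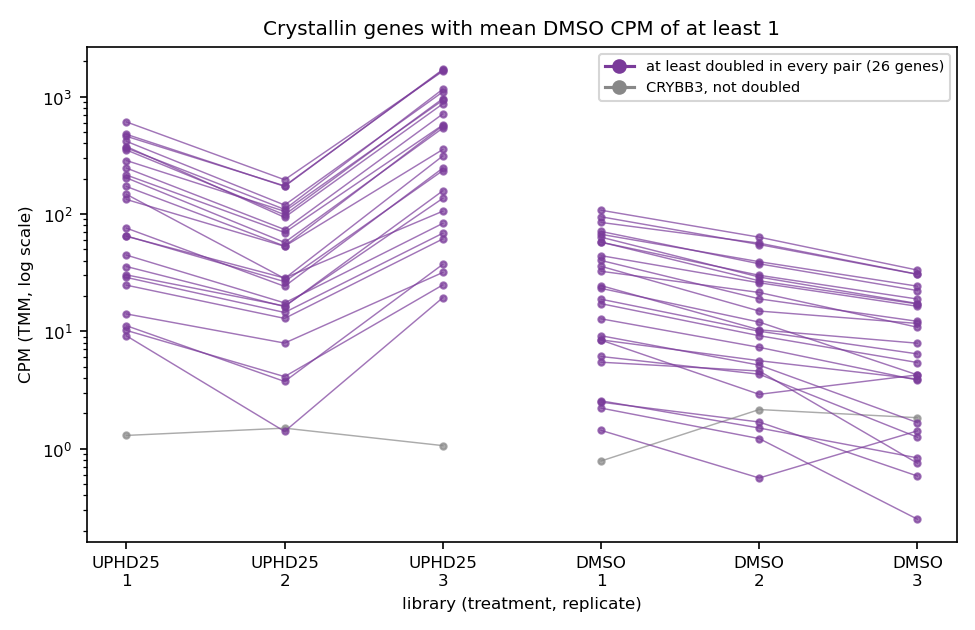
Each line is 1 crystallin gene with a mean DMSO level of at least 1 CPM, with its CPM on a log axis in the 6 libraries. The 26 purple genes were at least doubled in every pair and are highest in UPHD25 replicate 3 and lowest among the UPHD25 libraries in replicate 2. The grey line is CRYBB3, at 1 to 2 CPM in most libraries.

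The remaining lens genes code for structural and membrane proteins of fibre cells. BFSP1 and BFSP2, the filensin and phakinin subunits of the beaded filament, had 17.7, 6.44 and 60.1 CPM and 53.6, 14.1 and 156 CPM in the UPHD25 libraries, against 3.2, 1.87 and 1.58 CPM and 7.81, 4.96 and 3.50 CPM in the DMSO libraries. LIM2 (ENSDARG00000015445), a junctional membrane protein of fibre cells, had 44.7, 13.6 and 114 CPM, against 7.77, 4.77 and 2.33 CPM, and its paralog lim2.3 had 14.03, 3.18 and 36.6 CPM, against 2.56, 1.31 and 0.917 CPM. LGSN, or lengsin, a glutamine synthetase relative of the lens, had 20.2, 14.8 and 61.7 CPM, against 5.73, 4.40 and 4.25 CPM. In these 5 genes the groups did not overlap. The lens water channel MIP (ENSDARG00000013963) was not a member because of pair 2, with ratios of 5.01, 1.37 and 92.3 in pairs 1, 2 and 3. The family of beaded filament, Lim2 and Mip genes was picked after the values were seen, so its shares are no test. Of its 8 genes at the DMSO minimum, 4 met the rule, against 1.31% of all genes. All 8 were higher in every pair, against 18.9% of all. Another LIM2 gene (ENSDARG00000041295) failed with ratios of 7.43, 1.05 and 39.98, and lim2.2 with 2.17, 3.49 and 1.80. Another MIP gene (ENSDARG00000037285) failed with 1.75 in pair 2. Outside the lens group, CAPN3, a calpain protease with a lens form in mammals, had 97.2, 30.8 and 325 CPM, against 24.3, 9.74 and 6.92 CPM. Its order of libraries was that of the crystallins.

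Many of the crystallin genes lie side by side. In the RefSeq annotation of GRCz12tu, used for gene order only, 126 members could be placed by symbol, and 27 of them lay next to another member in 9 runs. The share expected over all genes at the DMSO minimum was not computed, so this count is not read as a trait of position. A run of 9 gamma-M genes held crygm2d13, crygm2d11, crygm2d15, crygm2d18, crygm2d17, crygm2d8, crygm2d14, crygm2d16 and crygm2d6, and a run of 4 held crygm2d21, crygm2d10, crygm2d2 and crygm2d1. Paired neighbours were cryba1l2 with crybb1l2, CRYBB1 with CRYBA4, crybb1l1 with cryba1l1, and crygmx with crygmxl2. Only 3 runs held a gene outside the crystallins, namely unc119a2 beside cryba1b, ppp1r14ba beside slc8a4a, and sncb beside si:ch211-59p23.1. sncb codes for beta-synuclein, a presynaptic protein, and had 20.1, 34.2 and 47.9 CPM, against 7.53, 10.4 and 14.8 CPM, while si:ch211-59p23.1, with no role assigned, had 6.21, 3.83 and 7.42 CPM, against 0.988, 0.936 and 1.17 CPM.

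Retinal genes formed a group of 11 with medians of 2.58, 2.49 and 6.30 in pairs 1, 2 and 3. The groups did not overlap for 8 of them, against 191 of all 218 members, chosen by the same contrast, and 8.69% of 16647 genes. CRX, a transcription factor of photoreceptors, had 11.12, 4.11 and 34.5 CPM in the UPHD25 libraries, against 3.24, 1.59 and 1.67 CPM in the DMSO libraries. ABCA4, which clears retinoids from photoreceptor outer segments, had 5.81, 5.23 and 11.7 CPM, against 2.11, 2.25 and 2.33 CPM. PROM1, a membrane protein of outer segment discs, had 21.6, 21.6 and 44.8 CPM, against 9.17, 10.6 and 10.4 CPM. All 3 had groups that did not overlap. PRPH2, a tetraspanin of the outer segment rim, had 9.83, 2.62 and 31.5 CPM, against 2.73, 0.187 and 1.25 CPM, with UPHD25 replicate 2 inside the DMSO range. Its pair 2 ratio of 13.97 rests on 28 counts in UPHD25 against 2 in DMSO (exact binomial 95% interval 3.52 to 121). gnb3b, a transducin beta subunit, had 21.3, 0.934 and 55.7 CPM, against 4.29, 0.374 and 0.584 CPM, and its UPHD25 replicate 2 was below its DMSO replicate 1. Its pair 2 doubling rests on few counts and is uncertain. There, 3 counts measured 0.280 CPM in UPHD25 and 0.281 CPM in DMSO.

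A family of opsins and other phototransduction proteins, picked after the values were seen and not including gnb3b, had median ratios well above 1 in pairs 1 and 3 but not in pair 2. Of its 15 genes at the DMSO minimum, 10 were at least doubled in 2 of 3 pairs, against 3.74% of all 16647 genes, and 0 met the rule, against 1.31% of all. The median ratios of the 15 genes were 3.97, 0.939 and 17.5 in pairs 1, 2 and 3, whereas the 31 lens genes had 5.42, 3.09 and 48.9.

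Among transcription factors of eye and forebrain development, OTX2, SIX3, POU4F2 and NR2E1 were in the 20 members with the largest smallest ratio. The members rx3 and FEZF2 were not. OTX2, which patterns forebrain and retina, had 3.98, 7.94 and 22.1 CPM in the UPHD25 libraries, against 0.784, 1.31 and 1.75 CPM in the DMSO libraries, with ratios of 5.07, 6.06 and 12.6. SIX3, needed for the eye field and lens, had 14.3, 8.13 and 25.4 CPM, against 3.14, 1.87 and 1.17 CPM. POU4F2, a factor of retinal ganglion cells, had 5.49, 7.28 and 18.03 CPM, against 1.33, 1.87 and 2.33 CPM. In none of these did the groups overlap. NR2E1, of neural and retinal progenitors, had 3.22, 6.35 and 8.09 CPM, against 0.920, 1.59 and 0.750 CPM. The homeobox gene rx3, which specifies the eye field in fish, had 4.15, 3.36 and 7.16 CPM, against 1.70, 0.843 and 1.33 CPM, and FEZF2, of forebrain neurons, had 5.00, 3.08 and 9.88 CPM, against 0.920, 1.5 and 1.00 CPM. These 6 genes were under 4 CPM in every DMSO library.

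The transcription factors as a whole numbered 19, with medians of 2.79, 3.91 and 5.37 in pairs 1, 2 and 3. The groups did not overlap for 18 of them, against 191 of all 218 members, chosen by the same contrast, and 8.69% of the 16647 genes. NPAS4, a factor induced by neuronal activity, was the most abundant of them, with 122, 314 and 495 CPM in the UPHD25 libraries, against 30.5, 52.5 and 98.9 CPM in the DMSO libraries. Its mean was 310.2 ± 187 CPM in UPHD25 and 60.6 ± 34.9 CPM in DMSO (SD, n = 3 each). egr4, an immediate early zinc finger gene, had 137, 309 and 158 CPM, against 60.6, 79.1 and 55.8 CPM. For both, every UPHD25 library was above every DMSO library, but the highest was replicate 3 for NPAS4 and replicate 2 for egr4. The list of immediate early genes, which does not hold NPAS4, had 33 genes at the DMSO minimum. Of these, egr4 was the only member, where 1.31% of all genes met the rule. Of the 33, 14 were higher in every pair, against 18.9% of all 16647 genes, and 1 was lower, against 22.1%. INSM1, a factor of neuroendocrine cells and newborn neurons, had 18, 40.8 and 28.04 CPM, against 8.21, 9.18 and 11.4 CPM. lhx1a, which marks the developing pronephros and also classes of neurons, had 8.35, 21.9 and 24.4 CPM, against 3.92, 2.15 and 7.92 CPM. It was the only one of 15 kidney transcription factors at the DMSO minimum in the list of nephron regulators to meet the rule. Over all genes 1.31% did.

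Genes for the synthesis and vesicle loading of GABA were among the members. GAD1 (ENSDARG00000027419) and GAD2, which make GABA from glutamate, had 31.5, 46.7 and 96.6 CPM and 18.9, 78.5 and 92.5 CPM in the UPHD25 libraries, against 12.5, 10.3 and 15.3 CPM and 7.23, 15.5 and 24.3 CPM in the DMSO libraries. SLC32A1, which loads GABA and glycine into vesicles, had 13.5, 41.1 and 36.2 CPM, against 4.19, 5.15 and 10.6 CPM. The groups did not overlap for GAD1 and SLC32A1, while for GAD2 the lowest UPHD25 library fell within the DMSO range. A second GAD1 gene (ENSDARG00000093411) and gad3 did not meet the rule, the first with ratios of 1.76, 1.77 and 2.65 and gad3 with ratios of 0.362, 0.214 and 1.93.

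Other members act where inhibitory transmitters are received. slc12a5b, the chloride exporter of mature neurons, had 8.71, 10.3 and 29.96 CPM in the UPHD25 libraries, against 2.86, 2.34 and 3.42 CPM in the DMSO libraries. GPHN, or gephyrin, which anchors inhibitory receptors, had 10.6, 9.71 and 15.9 CPM, against 4.87, 4.49 and 4.59 CPM. GABRD, the delta subunit of the GABA-A receptor, had 3.66, 4.39 and 12.2 CPM, against 1.02, 1.4 and 1.58 CPM. All 3 had groups that did not overlap. GABRD was the only one of 11 GABA-A receptor genes at the DMSO minimum to meet the rule, where 1.31% of all genes did. This family was picked after the values were seen. Of the 11, 6 were higher in every pair, against 18.9% of all 16647 genes, and 0 were lower, against 22.1%. The 10 genes of inhibitory transmission had medians of 2.79, 4.46 and 4.52 in pairs 1, 2 and 3. Their groups did not overlap for 7, against 191 of all 218 members, chosen by the same contrast, and 8.69% of the 16647 genes.

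**Figure D3:**
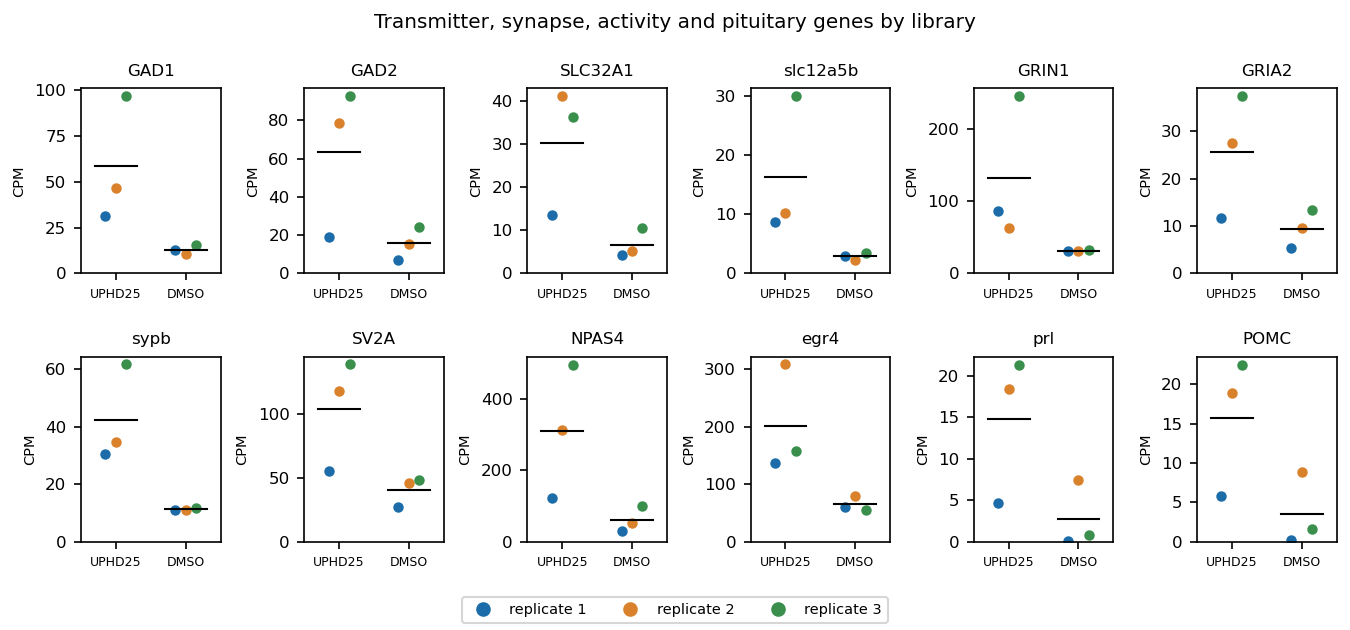
Each panel is 1 gene, with its CPM in the 3 UPHD25 libraries on the left and in the 3 DMSO libraries on the right, coloured by replicate number, and a bar at each group's mean. GAD1, GRIN1, sypb and SV2A show every UPHD25 point above every DMSO point. For prl and POMC, replicate 2 is the highest DMSO library and replicate 1 the lowest UPHD25 library.

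Glutamate receptors made up much of the next group, which had 14 genes with receptor scaffolds and a carrier. GRIN1 (ENSDARG00000025728), the subunit common to NMDA receptors, was the most abundant, with 86.1, 62.9 and 245 CPM in the UPHD25 libraries, against 30.8, 30.2 and 32.01 CPM in the DMSO libraries. The DMSO libraries were close to each other and UPHD25 replicate 3 was far above the other UPHD25 libraries. GRIN2A and GRIN2C, which set the kinetics of NMDA receptors, had 10.4, 12.3 and 17.8 CPM and 4.33, 4.67 and 5.83 CPM, against 4.84, 4.12 and 5.34 CPM and 1.36, 1.12 and 1.83 CPM. Among AMPA receptor subunits, GRIA2 had 11.7, 27.5 and 37.5 CPM, against 5.35, 9.55 and 13.4 CPM, and gria4a had 7.86, 14.3 and 20.4 CPM, against 2.93, 4.68 and 6.09 CPM. For GRIA2, UPHD25 replicate 1 lay below DMSO replicate 3. The kainate receptor genes GRIK2, GRIK3 and GRIK4 had pair ratios between 2.06 and 5.11. For 9 of the 14 genes the groups did not overlap, against 191 of all 218 members, chosen by the same contrast, and 8.69% of 16647 genes.

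The family of ionotropic glutamate receptors, like the Cacng family below, was picked after the values were seen, so its shares are no test. Of its 18 genes at the DMSO minimum, 8 met the rule, 15 were higher in every pair and 0 were lower. Over all 16647 genes, 1.31% met the rule, 18.9% were higher in every pair and 22.1% lower. Receptor partners in the set were CACNG2 and CACNG3, auxiliary subunits of AMPA receptors, and DLG4, the postsynaptic scaffold PSD-95. Of 8 Cacng genes at the DMSO minimum, 2 met the rule, 4 were higher in every pair and 2 were lower. CACNG2 had 7.64, 9.43 and 13.5 CPM, against 2.49, 2.62 and 5.50 CPM, and DLG4 had 7.15, 15.7 and 18.2 CPM, against 3.51, 6.93 and 5.92 CPM. SLC1A3, the glutamate carrier of astroglia, had 4.11, 18.8 and 38.8 CPM, against 1.70, 8.33 and 5.59 CPM, with DMSO replicate 2 above UPHD25 replicate 1.

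Synaptic and axonal adhesion genes numbered 19, and the groups did not overlap for any of them. This held for 191 of all 218 members, chosen by the same contrast, and for 8.69% of the 16647 genes at the DMSO minimum. ADGRB1, an adhesion receptor of synapses, was the most abundant, with 81.02, 164 and 178 CPM in the UPHD25 libraries, against 37.9, 53.9 and 70.9 CPM in the DMSO libraries. nrxn1a, a presynaptic neurexin, had 24.3, 34.5 and 43.2 CPM, against 10.1, 16.2 and 20.9 CPM. Its postsynaptic partners included nlgn3b, a neuroligin, with 7.15, 16.8 and 18.96 CPM, against 3.14, 5.52 and 7.09 CPM. In all 3, DMSO replicate 1 was the lowest library. The leucine-rich repeat proteins LRRTM1 and LRRTM2, which also bind neurexins, had 7.28, 9.34 and 16.2 CPM and 5.18, 7.94 and 14.1 CPM, against 2.66, 2.34 and 4.08 CPM and 1.77, 1.59 and 2.5 CPM. CBLN2, a secreted bridge between neurexins and glutamate receptors of the delta class, had 2.19, 5.70 and 7.42 CPM, against 0.682, 1.12 and 1.75 CPM. The ratios of the group were moderate, with medians of 2.20, 3.04 and 3.85. Of 8 Lrrtm and Slitrk genes at the DMSO minimum 4 were members, where 1.31% of all genes met the rule. This family was picked after the values were seen, so its share is no test.

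Vesicle release genes were 6, with medians of 2.57, 3.13 and 3.69 in pairs 1, 2 and 3. SV2A, a glycoprotein of synaptic vesicles, had 55.3, 118 and 139 CPM in the UPHD25 libraries, against 27.5, 46.3 and 48.02 CPM in the DMSO libraries. sypb, a synaptophysin, had 30.5, 34.7 and 61.9 CPM, against 10.9, 11.14 and 11.7 CPM. Every UPHD25 library was above every DMSO library for both. syt5b, a synaptotagmin, had 22.6, 7.94 and 59.5 CPM, against 7.06, 2.53 and 1.58 CPM, and followed the library order of the lens genes. Of 18 synaptotagmin genes at the DMSO minimum, syt5b and SYT9 met the rule, where 1.31% of all genes did. This family was picked after the values were seen. Of the 18, 13 were higher in every pair, against 18.9% of all 16647 genes, and 1 was lower, against 22.1%.

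Hormone and granule genes were 5. The groups did not overlap for 3 of them, against 191 of all 218 members, chosen by the same contrast, and 8.69% of 16647 genes. prl, which codes for the pituitary hormone prolactin, had 104, 197 and 320 counts in the UPHD25 libraries, against 4, 79 and 10 counts in the DMSO libraries. POMC, the precursor of ACTH and melanocyte-stimulating hormone, had 131, 202 and 338 counts, against 7, 95 and 19 counts. In both genes the groups overlapped, since DMSO replicate 2 held more CPM than UPHD25 replicate 1. The ratios were 34.1, 2.49 and 25.4 for prl and 24.5, 2.12 and 14.1 for POMC in pairs 1, 2 and 3. Growth hormone, gh1, was not a member because of pair 2, with 357, 280 and 426 counts in the UPHD25 libraries, against 29, 268 and 56 counts in the DMSO libraries. Of the 4 pituitary hormone genes at the DMSO minimum, all were higher in every pair, against 18.9% of all 16647 genes. The family was picked after the values were seen. In pairs 1, 2 and 3 the ratios were 16.1, 1.042 and 6.05 for gh1 and 3.09, 1.097 and 2.39 for CGA. In pair 2, gh1 and CGA therefore differed little between the treatments. scg2b, a granin of dense-core vesicles, had 87.9, 258 and 159 CPM, against 40.9, 70.22 and 76.03 CPM, and chgb, another granin, had 7.46, 11.11 and 23.2 CPM, against 2.52, 4.03 and 4.59 CPM.

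Kinases, signalling proteins and cytoskeletal proteins were also represented. The groups did not overlap for 13 of 14 genes for kinases and signalling proteins and for 9 of 10 cytoskeleton and transport genes. This is near the share over all 218 members, chosen by the same contrast, where it held for 191. Over the 16647 genes at the DMSO minimum it held for 8.69%. tubb4bl, a beta-tubulin, had 30.8, 46.7 and 46.5 CPM in the UPHD25 libraries, against 14.1, 14.1 and 14.3 CPM in the DMSO libraries, and INA (ENSDARG00000053248), a neuronal intermediate filament protein, had 4.82, 6.07 and 14.4 CPM, against 1.70, 2.15 and 4.0 CPM. CDK5R2, an activator of the neuronal kinase CDK5, had the largest pair 2 ratio of the signalling group, 11.5, with 8.22, 34.4 and 22.01 CPM, against 3.41, 3.00 and 9.92 CPM, and overlapping groups. In the group of 10 channels, carriers and receptors, gpr3, a constitutively active receptor that raises cyclic AMP, had 43.9, 131 and 88.2 CPM, against 15.3, 12.9 and 34.3 CPM. It was highest in UPHD25 replicate 2.

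A few members belong to glia, retinoid handling and metabolism. FABP7, the brain fatty acid binding protein of radial glia, had 45.5, 40.2 and 152 CPM in the UPHD25 libraries, against 11.9, 13.8 and 20.2 CPM in the DMSO libraries. CRABP1, which binds retinoic acid in the cytosol, had 4.91, 2.71 and 9.08 CPM, against 1.19, 1.22 and 1.17 CPM. It was the only one of 22 retinoic acid pathway genes at the DMSO minimum to meet the rule. Of the 22, 2 were higher in every pair, against 18.9% of all 16647 genes, and 8 were lower, against 22.1%. ENO1, a glycolytic enolase, had 20.7, 31.1 and 38.5 CPM, against 8.76, 13.9 and 13.8 CPM. TKT, the transketolase of the pentose phosphate pathway, had 46.01, 16.6 and 112 CPM, against 18.7, 8.24 and 3.75 CPM, with overlapping groups. HSPA4L, a chaperone of the Hsp110 class, had 21.1, 41.0 and 22.9 CPM, against 8.11, 6.93 and 6.34 CPM. In ENO1 and HSPA4L every UPHD25 library was above every DMSO library. SP5, a target of Wnt signalling, had 2.64, 5.23 and 5.10 CPM, against 1.19, 2.06 and 2.25 CPM. It was the only one of 44 growth signal genes at the DMSO minimum to meet the rule, as ENO1 was of 32 hypoxia and glycolysis genes and FABP7 of 30 lipid and sterol genes and of 11 glia markers. With 1.31% of all genes meeting the rule, nothing about these pathways is read from a single member. GALNT17, which starts O-linked sugar chains, had 2.95, 5.32 and 7.76 CPM, against 0.852, 1.12 and 1.58 CPM. Of 16 Galnt genes at the DMSO minimum, 3 met the rule, 5 were higher in every pair and 3 were lower. This family was picked after the values were seen.

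The 39 genes without a role included 1 abundant transcript. si:ch211-255g12.6 had 134, 33.7 and 363 CPM in the UPHD25 libraries, against 21.2, 12.6 and 5.84 CPM in the DMSO libraries, and its ratios of 6.31, 2.67 and 62.2 were like those of the crystallins. The medians of the 39 genes were 2.46, 2.73 and 3.21. The groups did not overlap for 32, against 191 of all 218 members, chosen by the same contrast, and 8.69% of the 16647 genes.

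The order of the libraries separated the lens genes from most other members. All 31 lens genes were highest in UPHD25 replicate 3, then replicate 1, then replicate 2, and were highest among the DMSO libraries in replicate 1. Among the other 187 members, 22 had this order, including SIX3, rx3, BHLHE22, CAPN3, syt5b, rbp4l, TKT and 7 of the 11 retinal genes. In contrast, 110 members, none of them a lens gene, were lowest in replicate 1 of both treatments. They were 58.8% of the 187 members outside the lens group. By role, the count was 10 of 19 for adhesion genes, 9 of 14 for glutamate receptor and scaffold genes, 5 of 10 for inhibitory transmission, 5 of 5 for hormone and granule genes and 1 of 6 for secreted neural factors. It was 28 of 39 for genes without a role, 9 of 10 for cytoskeleton and transport, 7 of 10 for channels, carriers and receptors, 5 of 5 for RNA-binding proteins and 1 of 11 for retinal genes. The share of all 16647 genes with this order was not computed, so it is not read as a trait of neural genes. The heatmap shows both patterns.

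**Figure D4:**
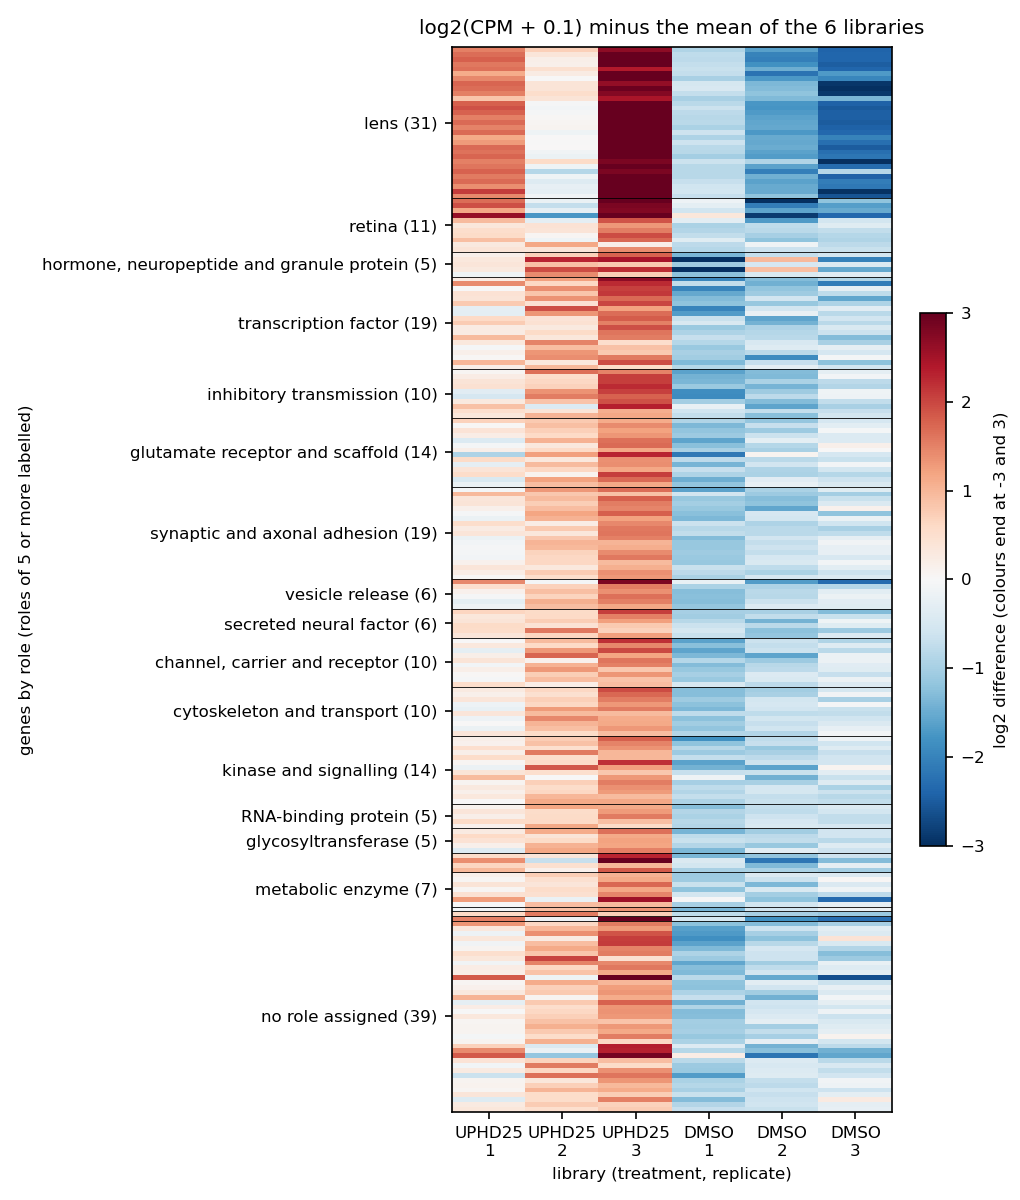
Rows are the 218 genes by role and columns the 6 libraries, UPHD25 on the left, and colour is log2(CPM + 0.1) minus the gene's mean over the 6 libraries, with the scale cut off at both ends. Lens rows are darkest in UPHD25 replicate 3 and pale in UPHD25 replicate 2. In most other rows UPHD25 replicate 1 is the palest of the UPHD25 libraries.

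Markers of other tissues were measured beside the set. Of 48 lists of pathway and cell type genes, 39 held no member. The lists together held 844 genes at the DMSO minimum, of which 15 were members. Neither count is read as a result about the lists. For comparison, 1.31% of all 16647 genes met the rule, 18.9% were higher in every pair and 22.1% lower. The list of 26 neuron markers at the DMSO minimum held 4 members (GAD1, GAD2, INA and sypb), 21 of the 26 were higher in every pair and 0 lower. Summed, the neuron list had 780, 1503 and 1776 CPM in the UPHD25 libraries, against 539, 626 and 777 CPM in the DMSO libraries, and syn1 was at 0 in UPHD25 replicate 3 and in DMSO replicates 1 and 2. The list of retina and lens markers had 12 genes at the minimum, of which 5 were members (CRX, both CRYBA2 genes, CRYBB1 and crygm2d1), 9 were higher in every pair and 0 lower. The list summed to 1187, 356 and 3819 CPM, against 228, 136 and 88.4 CPM. The lens crystallin CRYAA was at 0 in DMSO replicates 2 and 3, and the cone opsin opn1lw1 was at 0 in replicates 2 and 3 of both treatments. These lists share genes with the set, and the part that nearby brain, eye or pituitary tissue in a pool has in these values was not tested.

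The proximal tubule list moved less than the eye and neuron lists in the sum. Its 22 genes at the DMSO minimum held 0 members, where 1.31% of all genes met the rule, 3 were higher and 4 lower in every pair, and the whole list summed to 3200, 1794 and 2130 CPM in the UPHD25 libraries, against 2845, 2115 and 2431 CPM in the DMSO libraries. Other lists were lower after UPHD25 in the sum. The skeletal muscle list summed to 17661, 32806 and 23832 CPM, against 38991, 39964 and 44987 CPM, with 10 of 16 genes lower in every pair. The exocrine pancreas list summed to 11604, 3853 and 4831 CPM, against 14012, 19125 and 12512 CPM, with 10 of 16 genes lower in every pair. Of all 16647 genes, 18.9% were higher and 22.1% lower in every pair. The glia list, which holds the member FABP7, summed to 538, 496 and 1442 CPM, against 433, 370.4 and 456 CPM. Of its 11 genes at the DMSO minimum, 4 were higher and 0 lower in every pair. Their median ratios were 0.886, 1.48 and 2.41 in pairs 1, 2 and 3, so in pair 1 the sum rose while the median gene was lower. By these sums the pools differed between treatments and also among the UPHD25 replicates, and the part of these tissues in the levels of the members was not tested.

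**Figure D5:**
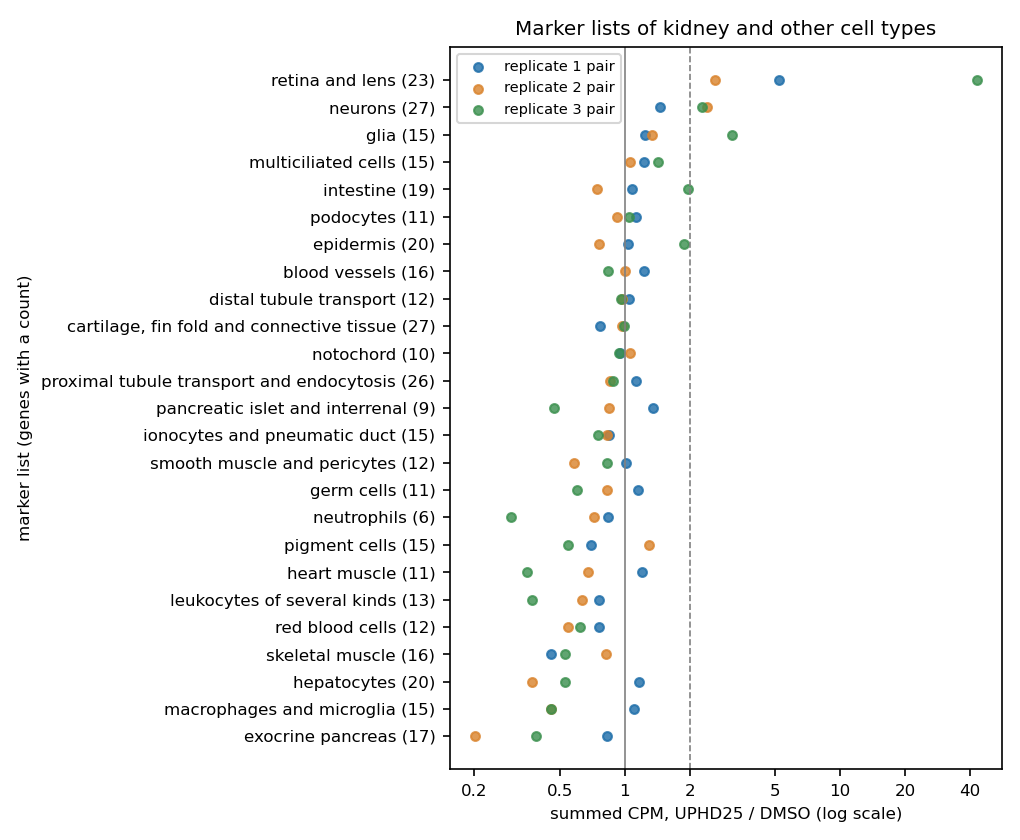
Each row is a marker list and each point its summed CPM in UPHD25 divided by that in DMSO of the same replicate number, on a log axis, with lines at 1 and 2. Retina and lens markers have ratios of 5.19, 2.63 and 43.2 in pairs 1, 2 and 3, neurons 1.45, 2.40 and 2.28, and proximal tubule markers 1.12, 0.848 and 0.876. Exocrine pancreas markers stand at 0.828, 0.201 and 0.386.

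The members were low in the DMSO tubules. Their median DMSO mean was 3.04 CPM, against 13.2 CPM over all 16647 genes, and 149 of the 218 (68.3%) were under 5 CPM, against 28.6% of all. In the UPHD25 libraries their median mean was 11.4 CPM, against 13.8 CPM over all. The DMSO level is part of both the rule and its ratio, so this is a description of the choice. At 3 counts, taken as the floor, a library measured 0.134, 0.280 and 0.199 CPM in UPHD25 replicates 1, 2 and 3, and 0.102, 0.281 and 0.25 CPM in DMSO replicates 1, 2 and 3. Only crygm2d10 and PRPH2 had a library at or under the floor, and 198 members had at least 10 counts in every library.

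Members spread from just past the threshold upward. The smallest of a gene's 3 ratios was under 2.5 for 133 members, between 2.5 and 3 for 45 and at least 3 for 40, of which 18 were lens genes. Just inside were RNASEK and SV2A, both with a smallest ratio of 2.01, and brsk1a with 2.00. Just outside were GRIN2B (ENSDARG00000030376), with 1.998 in pair 1 and 2.66 and 4.18 in pairs 2 and 3, FUT9 and GBX1, with 1.995 in 1 pair. In a further 623 genes at the DMSO minimum the ratio reached 2 in 2 of 3 pairs. In the fit across all genes, edgeR's quasi-likelihood test gave an adjusted p (Benjamini-Hochberg) under 0.05 for 0 of 17497 genes, with 2186 genes at an unadjusted p under 0.05. DESeq2's Wald test called 518 genes higher after UPHD25 (2.80% of 18479), and 175 of the 218 members were among them, from which nothing is read since the same contrast chose the members.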

How the data were processed

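RNA-seq libraries were analysed from 3 pools of gent-AKI+UPHD25 and 3 pools of gent-AKI+DMSO tubules. The authors aligned paired-end reads of a stranded mRNA kit to danRer11 with HISAT2 2.1.0 and assigned them to genes with featureCounts. The values the authors deposited are raw counts, one per gene and library, without normalization. The annotation release, strand option and treatment of reads that fit several genes are not given in the sources used here, so near-identical and overlapping genes are uncertain. Columns were assigned by their labels, and 0 columns were left unassigned.

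CPM used edgeR 4.0.16 TMM factors under R 4.3.3, without a prior count. The fit over all genes used edgeR's quasi-likelihood test after filterByExpr (minimum count 10, minimum total 15), two-sided, with Benjamini-Hochberg adjustment and a threshold of 0.05, and DESeq2 1.42.0 as the alternative. The steps were tested on simulated counts with 200 changed genes. Pools are the replicates, and the p-values set the difference between treatments against the spread between pools. Intervals and the floor of 3 counts cover counting error only.

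Same-numbered libraries shared deviations from their group means over the genes tested, with correlations of 0.49, 0.29 and 0.21 for pairs 1, 2 and 3. Libraries of different numbers were not compared in this way. The pairs are set by the rule that chose the genes, and the main fit over all genes had no replicate block. The replicate numbers come from the sample labels, which do not say what the pools of a pair shared.

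The members and the gene lists were chosen with earlier results of these data known. Named genes were the 20 members with a symbol that had the largest smallest ratio, the 15 with the highest mean UPHD25 level, members in a list or next to another member, and the 3 genes on each side of the threshold. Other genes named for a role, the roles and the families were picked after the values were seen. A list symbol ending in a or b with no match was matched without that letter. Sequence features of promoters and proteins were not analysed here. Some genes that the rule for named genes would take are not reported here. Alternatives were scaling by DESeq2 size factors, by upper quartiles or by library totals, other CPM minimums and ratios, the replicate block, and each replicate left out.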

Additional observations from a re-analysis of the deposited data

How the results depend on the processing

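The number of genes at least doubled in every pair was 218 with TMM factors and stayed within 1.5 times of that with library totals (250 genes, 214 of them among the 218), DESeq2 size factors (217, 210 shared), upper quartile scaling (225, 215 shared), TMM factors over filtered genes (229, all 218 among them), and minimums of 0.5 CPM (286) and 2 CPM (146). It was 69 with a minimum of 5 CPM, 386 with no CPM minimum but a count in each DMSO library, 656 at a ratio of 1.5 and 40 at a ratio of 3, as follows from stricter or looser rules. Every UPHD25 library was at least 2 times every DMSO library for 41 genes. With 1 replicate pair left out the count ranged from 249 to 640, and it was 640 without replicate 1, 339 without replicate 2 and 249 without replicate 3, since only 2 pairs then had to pass.

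In the fit over all genes, edgeR's quasi-likelihood test gave 0 genes past the threshold, and DESeq2's Wald test gave 639. The cause was not tested. The fit with a replicate block likewise gave 0 genes. The count was also 0 with DESeq2 size factors and with no filter, and ranged from 0 to 1 with 1 library left out, the 1 without UPHD25 replicate 2. For the 30 members chosen by largest smallest ratio or by level, the 120 alternative values (scalings and the replicate block) kept their direction. These genes were at least doubled in every pair by the choice itself, so a reversal was hardly possible and nothing is read from this. The block changed the fitted log2 fold change by -0.61 to -0.02.

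Depth limits the genes with few counts: a ratio with a count of 3 or fewer in 1 library has a wide counting interval, and 72 members had a DMSO mean of 1 to 2 CPM. Pools, not larvae, are the units.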
